A study of Mus musculus with 16 samples.

Results

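Matrix metalloproteases (MMPs), the ADAMTS proteases and the tissue inhibitors of metalloproteases (TIMPs) were examined here as a group of 39 genes, listed by symbol and found, all of them, among the 54453 genes of the expression table. They comprise 17 MMPs, of which 10 are secreted and 7 are bound to the cell membrane, 18 ADAMTS proteases and 4 inhibitors. RNA was taken from 2 immortalised lines of mouse embryonic fibroblasts, MEF-1 and MEF-2, which were set up from E13.5 C57BL/6J sibling embryos and immortalised by serial passaging, and from 7 clonal lines of each, every one grown from a single sorted cell. All 16 lines, the parental lines included, are immortalised and untreated, MEF-1 coming from a male and MEF-2 from a female embryo. Each line has 1 library of total RNA depleted of ribosomal RNA, so that the 7 clonal lines serve as replicates within a set, the parental line on its own has none, and the embryo, its sex and its path through immortalisation cannot be told apart.

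These zinc-dependent enzymes cut the proteins of the extracellular matrix and release growth factors held in it. MMPs are made as inactive precursors, the secreted collagenases, gelatinases and stromelysins being joined by membrane-bound members that act at the cell surface, whereas ADAMTS enzymes carry thrombospondin repeats and divide by substrate into those that cut the large proteoglycans, those that trim procollagen and others. TIMPs bind the active site of MMPs, and Timp3 also restrains several ADAMTS and ADAM enzymes. Fibroblasts are a main source of all 3 kinds of gene.

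The deposited values are regularised log (rlog) values, which put library-scaled read counts on a log2 scale and are pulled towards the average of the gene, most strongly where reads are few. The number of reads behind them is unknown. Among the 39 genes, 35 had an average over the 16 lines above 0 and entered the tests, and 27 of these had an average above 5. Mmp8, Mmp10, Mmp12 and Adamts19 had averages of −2.28, −1.56, −1.92 and −1.32. A gene without reads takes a value that shifts slightly with the size factor of the library, about a level of its own. In 15, 12, 13 and 14 of the 16 lines the values of these 4 genes followed that shift on a straight line within 0.005, which is called the no-read level of the gene here. The fibroblast matrix genes Col1a1 (average 20.88), Fn1 (20.82) and Col1a2 (19.92) were among the highest. Of the 10 fibroblast markers 4 were higher in MEF-1 (Dcn −4.74, Lum −3.68, Pdgfra −1.85 and Col3a1 −0.60 as MEF-2 minus MEF-1) and 2 were higher in MEF-2 (Thy1 2.59 and Col1a2 0.34). The cartilage genes Col2a1, Acan and Sox9 averaged 18.35, 15.92 and 14.06, and were not called between the sets. Of the blood markers Lyz2 was higher in MEF-1 and Csf1r in MEF-2, of 4 endothelial markers Kdr was higher in MEF-1, and limma called 0 of the 3 cartilage, 4 epithelial and 1 tested muscle markers, with 0 at an unadjusted p under 0.05 and 0 by the exact permutation test. The summed blood markers covered 6.78 to 7.77 among the MEF-1 clones and 6.72 to 8.52 among the MEF-2 clones (log2 of the sum), and the endothelial ones 5.02 to 6.37 and 5.05 to 6.83. The blood markers Csf1r, Cd68, Lyz2, Ptprc and Adgre1 averaged 6.23, 5.03, 4.52, 2.08 and −1.92. The muscle markers Des, Myog and Myod1 averaged 3.44, −1.01 and −1.74. The part of such cells in the values below was not tested, and in bulk RNA fewer cells of a kind and less RNA per cell cannot be told apart.

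Set on a scale per length, as the average rlog value minus the log2 of the exon length in kilobases, Timp2 stood highest of the 39 genes at 15.05, followed by the gelatinase gene Mmp2 at 14.70. Timp3 (12.93), Timp1 (12.70) and Mmp14 (12.65) came next and lay closer to each other than the SD of Timp1 among the clonal lines of either set (0.58 and 0.58, n = 7). Adamts1 (11.84), Adamts5 (11.04) and Adamts12 (10.56) were the highest ADAMTS genes. On this scale the activator pair Mmp2 and Mmp14 and 3 inhibitors stood at the top, while the inducible secreted enzymes Mmp3, Mmp9 and Mmp13 stood at 2.08, 0.86 and 0.77 per length.

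The first comparison asks which of the genes differ between clonal lines from 2 embryos. The test was limma on 7 clonal lines a set, fitted over 21313 genes with Benjamini-Hochberg adjusted p-values. Of the 35 genes tested, 25 (71.4%) had an adjusted p under 0.05, beside 48.3% of all genes tested, 55.9% of all genes with an average above 5 and 56.1% when protein-coding genes alone were fitted. Above an average of 5 the genes of the module gave 19 called of 27 (70.4%). In 18 of the 35 (51.4%) the level was higher in MEF-1, against 25.7% of all genes, and in 7 it was higher in MEF-2, against 22.6% of all genes. A called difference of 1 or more on the log2 scale, that is a doubling on the shrunken scale, was found for 12 genes (34.3%, beside 10.6% of all genes), 9 of them higher in MEF-1 and 3 higher in MEF-2. The 7 and 7 values did not overlap in 12 genes (34.3%), against 21.3% of all genes. Mmp3 is in each of these counts as a gene higher in MEF-1, although its MEF-2 clonal lines were all at its no-read level. Timp4 is in each of them too, and some of its MEF-2 lines may be without reads, as described below. The median of the difference MEF-2 minus MEF-1 was −0.57 over the 35 genes and −0.02 over all genes tested. Above an average of 5 it was −0.33 over the 27 genes and 0.02 over all genes.

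**Figure D1:**
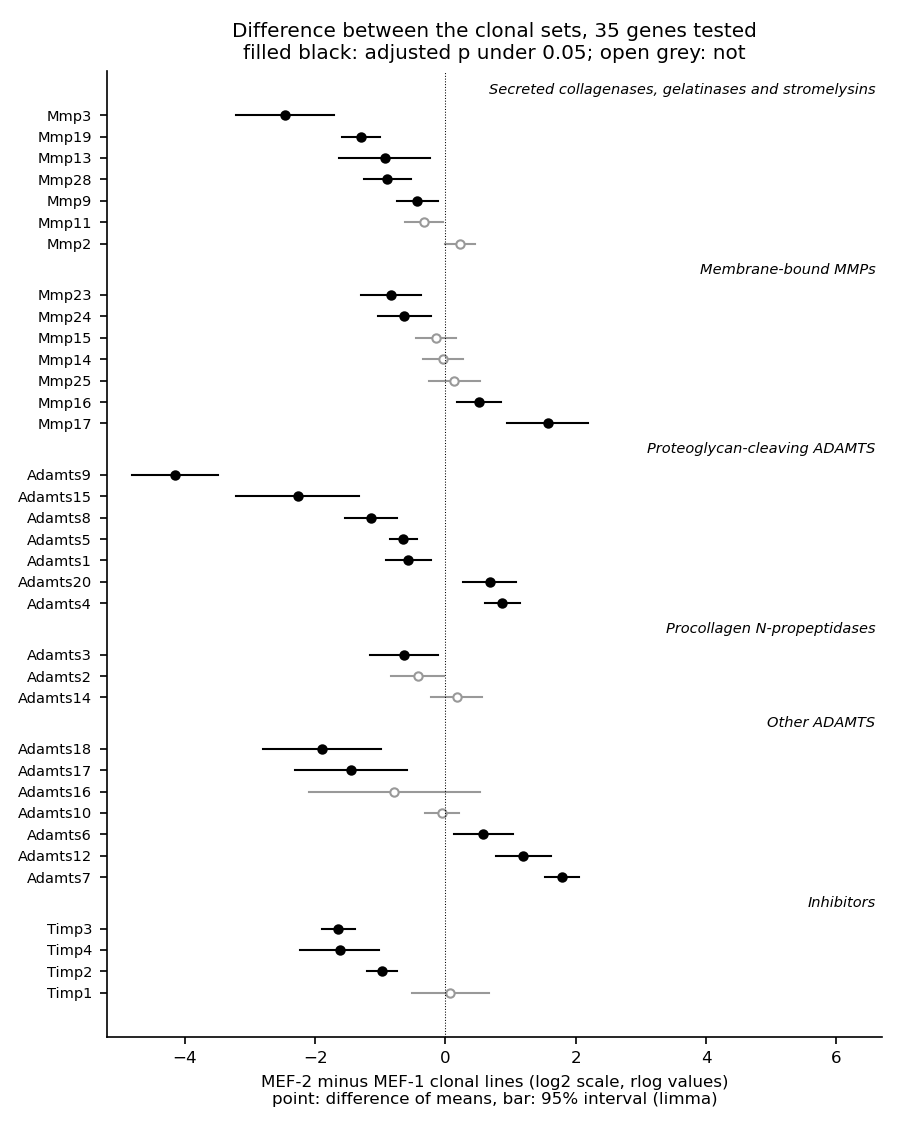
Difference MEF-2 minus MEF-1 between the means of the 7 and 7 clonal lines (x axis, log2 scale of rlog values) for the 35 genes tested, by family, with 95% intervals from limma as bars. Filled points mark the 25 genes with an adjusted p under 0.05. Adamts9 lies farthest to the left at −4.15 and Adamts7 farthest to the right at 1.79, and 3 of the 4 inhibitors lie to the left of 0.

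Among the 10 secreted MMPs 7 were tested, 5 were higher in MEF-1 and the other 2 were not called (median difference −0.89). Mmp3 (stromelysin 1, ENSMUSG00000043613, plus strand of chromosome 9 from 7445822 to 7455975 on mm10), which cuts many matrix proteins and activates other MMPs, ran from 3.26 through a median of 4.07 to 6.26 in the MEF-1 clonal lines, with the MEF-1 parental line at 2.17. The MEF-2 clones lay between 1.76 and 1.92 and their parental line at 1.83, and all 8 of these values were at the no-read level of the gene. The clonal sets did not overlap, at a difference of −2.46 ± 0.35 (SE; adjusted p = 4.09e-05), for which no fold is given since the MEF-2 lines show no sign of a read. Mmp3 thus passed the filter on low values only through the set in which it is high. The spread of its MEF-2 values is not one of expression, so its p-value is not taken as support. Mmp13 (collagenase 3) was at 1.89 to 4.46 (median 2.27) in MEF-1 and 1.43 to 2.15 (median 1.92) in MEF-2 clonal lines, which overlap (−0.93 ± 0.33, adjusted p = 0.029). Its call was lost without MEF-1 line 3 or 6 or MEF-2 line 4 or 5 (adjusted p from 0.0516 to 0.0595), and with chromosome medians taken away (0.0722) or quantile normalisation (0.0554). Mmp13 stood at 1.43, 1.47, 1.48 and 1.54 in MEF-2 line 5, the MEF-2 parental line, MEF-2 line 4 and the MEF-1 parental line. These values rose with the level of genes without reads in the same libraries. Whether those lines had reads of Mmp13 cannot be said, as the rule for the no-read level asks for at least 8 lines.

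Both genes lie in the MMP cluster of chromosome 9, where Mmp13, Mmp12, Mmp3, Mmp10 and Mmp8 follow each other with gaps of 46.4 to 76.3 kb and no other protein-coding gene wholly between them. Mmp10 (stromelysin 2), the neighbour of Mmp3, left the no-read level only in MEF-1, in clonal lines 5, 6 and 7 and the parental line, and reached −1.39 at most. Mmp12 and Mmp8 left it in 3 lines and 1 line. The bases before the RefSeq starts (GRCm38.p6) of the 3 cluster genes that were seen in several MEF-1 lines are shown because they carry the letters of an AP-1 site, TGANTCA, and of a TATA box, TATAAA. Each run covers the 80 bases before the start on the plus strand, at chr9:7445742-7445821 for Mmp3, chr9:7502262-7502341 for Mmp10 and chr9:7272434-7272513 for Mmp13, with both motifs in capitals.
Mmp3: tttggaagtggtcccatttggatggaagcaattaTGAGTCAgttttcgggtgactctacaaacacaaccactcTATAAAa
Mmp10: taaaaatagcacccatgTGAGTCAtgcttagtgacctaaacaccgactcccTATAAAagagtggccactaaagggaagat
Mmp13: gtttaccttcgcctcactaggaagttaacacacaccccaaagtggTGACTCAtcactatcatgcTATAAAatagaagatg

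The AP-1 letters began 46, 63 and 35 bases before the start in Mmp3, Mmp10 and Mmp13, and the TATA letters 7, 29 and 16 bases before it, without overlap between the motifs. In the 250 bases before the start, searched on both strands, 4 of the 25 genes of the module that had a promoter entry held the AP-1 letters, the fourth being Mmp12, beside 6.75% of the 32851 promoters of the table. TATAAA was found in the same 250 bases of 4 genes, these 3 and Adamts1, beside 12.4% of all promoters. A match is a description of letters and not of binding. No entry was found for Adamts4, Adamts5, Adamts6, Adamts7, Adamts8, Adamts10, Adamts15, Adamts16, Adamts19, Mmp2, Mmp9, Mmp16, Mmp17 and Mmp19.

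Of the other secreted enzymes, Mmp19 (chromosome 10 from 128790910 to 128800824, plus strand) was at 11.13 to 12.05 (median 11.50) among MEF-1 clones and at 10.15 to 10.59 (median 10.23) among MEF-2 clones, a difference of −1.30 ± 0.14 (adjusted p = 2.16e-06) without overlap. The MEF-1 parental line, at 10.70, was nearer to the MEF-2 parental line, at 10.51, than to its own clonal lines. On the opposite strand Mmp19 overlaps Tmem198b, which is as high (average 10.93). Mmp28 (epilysin) was higher in MEF-1 by a smaller step (10.61 ± 0.46 against 9.72 ± 0.19, SD, n = 7, adjusted p = 0.000545), again without overlap. Mmp9 (gelatinase B) was low in every line, between 2.17 and 3.34. Its difference of −0.43 lost the call without MEF-1 line 3 or 7 or MEF-2 line 6 (adjusted p from 0.0525 to 0.0541), and with quantile normalisation (0.114). Mmp2 (gelatinase A), the most abundant protease of the module, was at 16.36 ± 0.28 and 16.58 ± 0.09 and was not called (difference 0.22, 95% interval −0.00 to 0.45, adjusted p = 0.0963, but 0.0397 without MEF-1 line 3, 0.0301 with chromosome medians taken away and 0.0492 with parental lines counted as clones). Mmp11 (stromelysin 3) was not called either (−0.33 ± 0.14, adjusted p = 0.0554). It came under 0.05 when MEF-1 line 4 or 5 or MEF-2 line 3 or 7 was left out (0.0203 to 0.0403) and with quantile normalisation (0.0413).

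All 7 membrane-bound MMPs were tested, of which 2 were higher in MEF-1, 2 were higher in MEF-2 and 3 were not called. Mmp14 (MT1-MMP), the cell-surface activator of the Mmp2 precursor, was at 14.99 to 15.87 (median 15.21) in MEF-1 and at 14.76 to 15.65 (median 15.15) in MEF-2 clonal lines, and its difference of −0.04 had a 95% interval from −0.34 to 0.27. Mmp15 and Mmp25 had intervals of −0.46 to 0.17 and −0.26 to 0.53. Mmp17 (MT4-MMP, chromosome 5 from 129584169 to 129611099, plus strand), which is held at the surface by a lipid anchor, was higher in MEF-2. It ran from 6.26 through 6.77 to 7.19 in MEF-1 and from 7.30 through 8.21 to 9.46 in MEF-2 clonal lines, so that the groups touched without overlapping (1.57 ± 0.29, adjusted p = 0.000457). The direction was opposite to that of the chromosome 5 median, over its tested genes, which was lower in MEF-2 by 0.38. Mmp16 (MT3-MMP) was higher in MEF-2 by 0.51 (adjusted p = 0.0139, and 0.063 without a filter on low values). Mmp23 and Mmp24 were higher in MEF-1, Mmp23 at 4.89 to 5.87 against 4.16 to 5.31 (−0.83 ± 0.22, adjusted p = 0.00511). With each parental line counted among its clones the call of Mmp23 was lost (adjusted p = 0.52), as its parental values lie far from the clonal ones, which is described further on.

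The 7 ADAMTS proteases that cut aggrecan, versican and related proteoglycans were all called, 5 of them higher in MEF-1 and 2 higher in MEF-2. Adamts9 (ENSMUSG00000030022, minus strand of chromosome 6 from 92772699 to 92943492) differed most of all genes of the module. MEF-1 clones ran from 11.22 through 12.62 to 13.52, with their parental line inside at 12.44, and MEF-2 clones from 8.01 through 8.45 to 9.48, with theirs inside at 9.32. All 8 MEF-1 lines were thus above all 8 MEF-2 lines, and the difference of −4.15 ± 0.31 (adjusted p = 4.32e-08) amounts to 17.8-fold on the shrunken scale. The median level of the tested genes of chromosome 6, which is not a median of gene differences, was lower in MEF-2 by 0.35.

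Adamts15 (chromosome 9 from 30899155 to 30922452, minus strand) was at 12.18 to 12.99 (median 12.39) among MEF-1 clones and at 9.20 to 12.66 (median 9.79) among MEF-2 clones, a difference of −2.27 ± 0.44 (adjusted p = 0.000607). MEF-2 line 3, at 12.66, lay within the MEF-1 range, line 1 was at 11.34, and the other 5 were at 9.20 to 9.94, with the parental line at 9.68. Without line 3 the difference was −2.67. Its neighbour Adamts8, 20.1 kb away and on the other strand, was low in both sets but separated in the same direction, at 2.69 to 4.01 (median 3.01) against 1.83 to 2.48 (median 1.93; −1.14 ± 0.19, adjusted p = 0.000158). In Adamts8 line 3 was again the highest of the MEF-2 clonal lines.

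The aggrecanases gave differences in opposite directions. Adamts4 (aggrecanase 1) was higher in MEF-2, at 11.77 to 12.30 against 10.87 to 11.66 (0.87 ± 0.12, adjusted p = 3.95e-05), and Adamts5 (aggrecanase 2) was higher in MEF-1, at 14.56 to 15.10 against 13.87 to 14.43 (−0.64 ± 0.10, adjusted p = 6.34e-05), both without overlap. Adamts1, 53.1 kb from Adamts5 on chromosome 16, was also higher in MEF-1 (−0.57 ± 0.16, adjusted p = 0.00838), with overlap. Adamts20, known from a mouse coat-colour mutant, was higher in MEF-2 by 0.68 (adjusted p = 0.0087).

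The 3 procollagen N-propeptidases Adamts2, Adamts3 and Adamts14, which remove the amino-terminal propeptide of fibrillar collagens, averaged 12.89, 11.25 and 11.14. Adamts3 was called (−0.64 ± 0.25, adjusted p = 0.0421), but any 1 of 9 clonal lines left out took the call away (MEF-1 lines 1, 3, 4, 5 and 6 and MEF-2 lines 2, 4, 5 and 7, adjusted p from 0.0515 to 0.0895), and with the chromosome median taken away the difference was −0.26 (adjusted p = 0.41). Adamts2 (−0.43, adjusted p = 0.0794) was under 0.05 without MEF-1 line 6 or 7 (0.0332 to 0.0371) and with chromosome medians taken away (0.039), and Adamts14 was not called (0.17, 95% interval −0.22 to 0.56).

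Of the 8 other ADAMTS genes 7 were tested, 3 were higher in MEF-2 and 2 were higher in MEF-1. Adamts7 (chromosome 9 from 90163069 to 90208071, plus strand) and Adamts12 (chromosome 15 from 11064790 to 11349231, plus strand), a related pair known to cut cartilage oligomeric matrix protein, were both higher in MEF-2. Adamts7 ran from 9.61 through 10.00 to 10.44 in MEF-1 and from 11.53 through 11.86 to 12.00 in MEF-2 clonal lines, with parental lines at 9.85 and 11.73, and separated the sets by 1.79 ± 0.12 (adjusted p = 1.91e-08). Adamts12 ran from 12.59 through 13.40 to 13.78 and from 13.51 through 14.63 to 14.80, a difference of 1.19 ± 0.20 (adjusted p = 0.000146). Its overlap came from MEF-2 line 3, at 13.51, whereas the other 6 MEF-2 clonal lines were at 14.54 or above. Comp, the gene of that substrate, was lower in MEF-2 (−1.75 ± 0.31, adjusted p = 0.00031).

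Adamts18 (chromosome 8 from 113697126 to 113848738, minus strand) ran from 6.85 through 8.35 to 9.60 among MEF-1 clones and from 5.20 through 5.85 to 7.39 among MEF-2 clones (−1.90 ± 0.43, adjusted p = 0.00182). Adamts17 (chromosome 7 from 66839735 to 67153171, plus strand), a gene of connective tissue and eye development, ran from 5.71 through 6.17 to 8.29 and from 3.78 through 5.22 to 6.05 (−1.45 ± 0.40, adjusted p = 0.00757). Both pairs of groups overlapped. Adamts6 was higher in MEF-2 by 0.58 ± 0.21 (adjusted p = 0.0339), a call lost without MEF-1 line 1, 4 or 5 or MEF-2 line 2, 4, 6 or 7 (0.0574 to 0.0721) and by the exact permutation test (0.068). Adamts10, which binds fibrillin, was at 12.32 ± 0.25 and 12.26 ± 0.24 (95% interval of the difference −0.31 to 0.20), and Adamts16 at 4.58 ± 1.28 and 3.79 ± 1.28 (−2.09 to 0.53), too wide an interval to tell a difference of several fold from none.

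**Figure D2:**
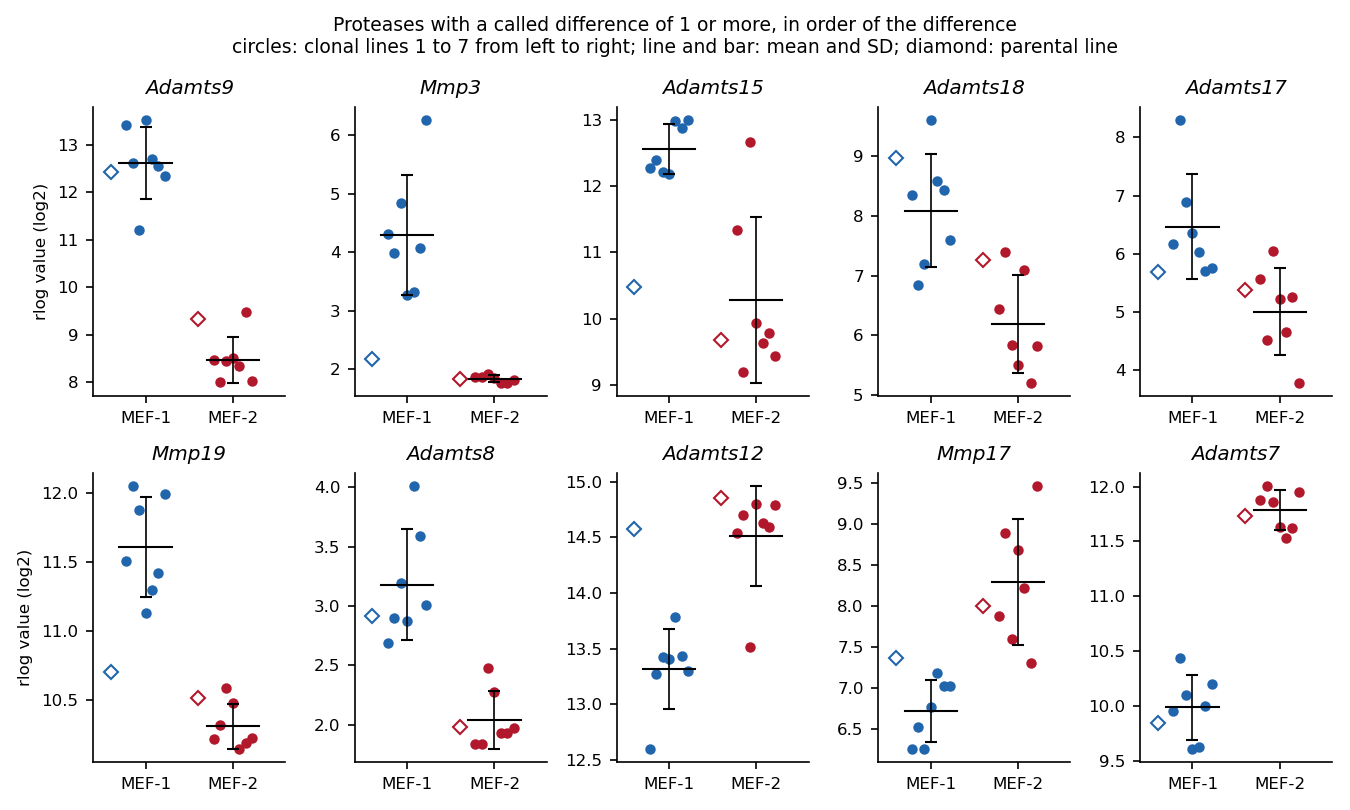
Rlog values (y axis, log2 scale, a scale of its own in each panel) of the 10 proteases with a called difference of 1 or more, in the 7 MEF-1 (blue) and 7 MEF-2 (red) clonal lines, with the mean and SD as line and bar and the parental line as an open diamond. Mmp3 in the MEF-2 lines lies flat at the no-read level, and MEF-2 line 3 stands at 12.66 in Adamts15 and 13.51 in Adamts12.

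Of the 4 inhibitors, 3 were higher in MEF-1 and Timp1 was not called. Timp2, which blocks MMPs and also takes part in the activation of Mmp2 at the cell surface (chromosome 11 from 118301069 to 118355740, minus strand), ran from 17.17 through 17.55 to 17.81 among MEF-1 clones and from 16.29 through 16.55 to 16.75 among MEF-2 clones. The difference was −0.97 ± 0.11 (adjusted p = 3.39e-06). Timp3, which is bound to the matrix (chromosome 10 from 86300372 to 86349506, plus strand), ran from 16.28 through 16.84 to 16.98 and from 14.63 through 15.15 to 15.34, a difference of −1.64 ± 0.12 (adjusted p = 4.13e-08), or 3.12-fold. Among the clones its SD was 0.24 in MEF-1 and 0.25 in MEF-2. Timp4 (chromosome 6 from 115241892 to 115252205, minus strand) was low (average 2.78), at 2.58 through 4.03 to 4.64 against 1.85 through 1.97 to 2.45 (−1.63 ± 0.29, adjusted p = 0.000267). MEF-2 line 7, the MEF-2 parental line and MEF-2 lines 4 and 2 stood at 1.85, 1.86, 1.87 and 1.89. Their order was that of the level of genes without reads in these libraries (−2.2829, −2.2826, −2.282 and −2.2813). The rule for the no-read level asks for at least 8 lines, so it cannot say whether these had reads. The p-value of Timp4 is thus not taken as support. Neither Timp2, Timp3 nor Timp4 overlapped between the clonal sets.

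Timp1, an inhibitor induced by cytokines and growth factors (chromosome X from 20870166 to 20874735, plus strand), overlapped between the sets. It ran from 11.68 through 12.58 to 13.44 in MEF-1 and from 12.05 through 12.27 to 13.40 in MEF-2 clonal lines, with a difference of 0.08 and a 95% interval from −0.51 to 0.66. Its highest values came from MEF-1 line 7 (13.44) and MEF-2 lines 2 (13.37) and 7 (13.40), and no other MEF-2 clonal line exceeded 12.32. Timp1, Timp3 and Timp4 each lie within a synapsin gene on the opposite strand. Syn1, Syn3 and Syn2 averaged 7.94, 5.05 and 2.47, so that of these Syn2 reached about the level of its TIMP. The library kit keeps the strand, and whether the counting used it is not given in the sources used here.

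**Figure D3:**
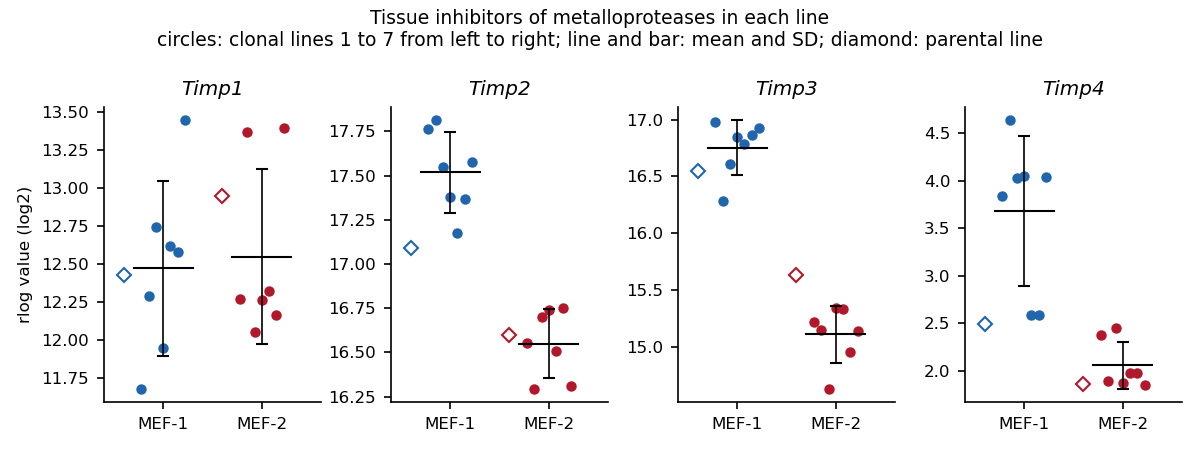
Rlog values (y axis, log2 scale, a scale of its own in each panel) of the 4 tissue inhibitors in the MEF-1 (blue) and MEF-2 (red) clonal lines, with mean and SD, and in the parental lines (diamonds). Timp2, Timp3 and Timp4 are separated between the clonal sets, and Timp1 overlaps, with 3 clonal lines at 13.37 to 13.44.

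The clonal lines of a set also differed among themselves. A range of 2 or more over the 7 clonal lines was found for 7 of the 35 genes in MEF-1 (4.75% of all genes tested) and for 5 in MEF-2 (3.93% of all genes). In MEF-1 these were Mmp3, Mmp13, Adamts9, Adamts16, Adamts17, Adamts18 and Timp4, and in MEF-2 Mmp17, Adamts15, Adamts16, Adamts17 and Adamts18. The count for MEF-2 was 3 without line 6 or without line 7. Among genes with an average above 5, the median SD was 0.36 over the 27 genes of the module against 0.18 over all genes in MEF-1, and 0.28 against 0.16 in MEF-2. Of those 27, 20 had the larger SD in MEF-1. As each line has 1 library, the spread between lines includes technical spread.

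Adamts16, a gene best known from kidney and gonad, had the widest range in MEF-1, from 3.03 to 6.80, and ran from 2.77 to 5.75 in MEF-2. In MEF-1 it was highest in line 7, followed by line 3 (5.67), and in MEF-2 in lines 2 (5.75) and 7 (5.52). Timp1 too was highest in line 7 of MEF-1 and in lines 2 and 7 of MEF-2, which was picked out after the values were seen. For Adamts16 the other 5 MEF-2 clonal lines were at 2.77 to 3.36. Mmp17 too was highest in MEF-2 line 7 (9.46), followed by line 2 (8.89). MEF-1 line 7 was highest as well for Mmp3 (6.26), Mmp13 (4.46) and Mmp9 (3.34). MEF-1 line 2 held the highest value of its set for 14 of the 35 genes, while it was the highest for 19.2% of all genes tested, and among these are Adamts1, Adamts5, Adamts17 at 8.29, and Timp2 at 17.81. MEF-1 line 6 was highest for 0 of the 35 (13.1% of all genes), and MEF-2 line 3 for 12 (24.6%).

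**Figure D4:**
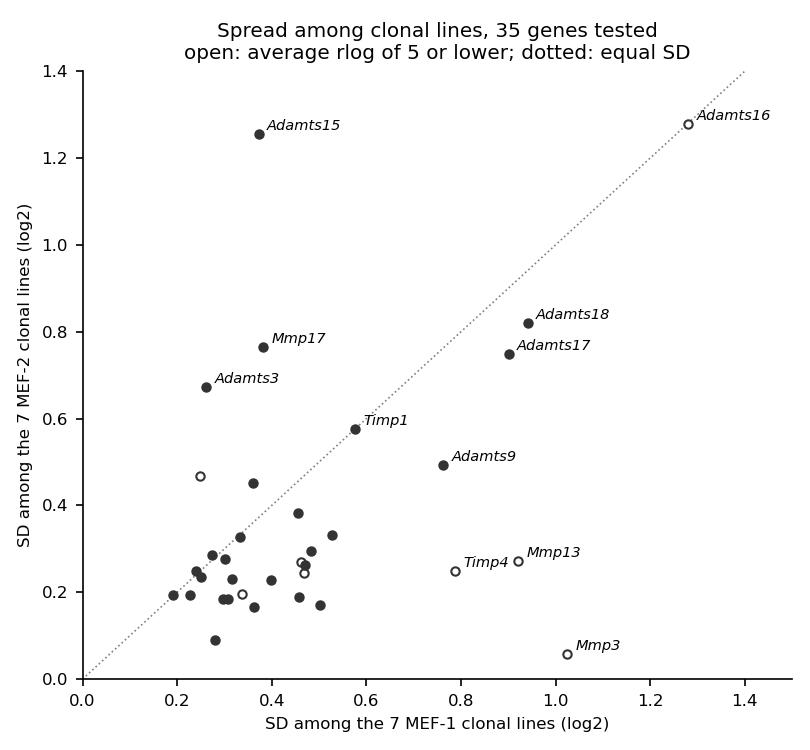
SD of the rlog values among the 7 MEF-1 clonal lines (x axis, log2 scale) and among the 7 MEF-2 clonal lines (y axis) for the 35 genes tested, with open circles for genes with an average of 5 or lower and a dotted line for equal SDs. Adamts16 is high on both axes (1.28 and 1.28), Adamts15 on the MEF-2 axis (1.25), and Mmp3 on the MEF-1 axis (1.02).

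The parental line was outside the range of its clonal lines for 14 of the 35 genes in MEF-1 (38.3% of all genes tested) and for 9 in MEF-2 (32.4% of all genes). In MEF-1 it was below the clonal lines in 11 of the 35 genes and above in 3 of the 35, beside 18.9% and 19.4% of all genes. In MEF-2 it was above in 8 of the 35 and below in 1 of the 35, beside 15.9% and 16.5% of all genes. By 0.5 or more it was outside in 4 genes and in 1. A parental culture is 1 library, so this is a description without a test.

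Mmp23, a membrane-anchored MMP of its own type (chromosome 4 from 155650655 to 155653384, minus strand), was 6.96 in the MEF-1 parental line, above clonal lines at 4.89 to 5.87. In the MEF-2 parental line it was 9.00, above clonal lines at 4.16 to 5.31. It was thus higher in both parents, by 1.61 and 4.48 over the clonal means. Adamts12 too was above all clonal lines in both sets, with the MEF-1 parent at 14.58 and the MEF-2 parent at 14.86, so that the parental lines differed by less than the clonal sets. Adamts4 was below all clonal lines in both, at 10.44 and 11.53. These were the only 3 of the 35 genes that lay outside on the same side in both sets. Adamts15 was 10.48 in the MEF-1 parental line, 1.70 below the lowest of its clonal lines and closer to the MEF-2 parental line. Mmp3, at 2.17, was 1.09 below the lowest MEF-1 clonal line.

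**Figure D5:**
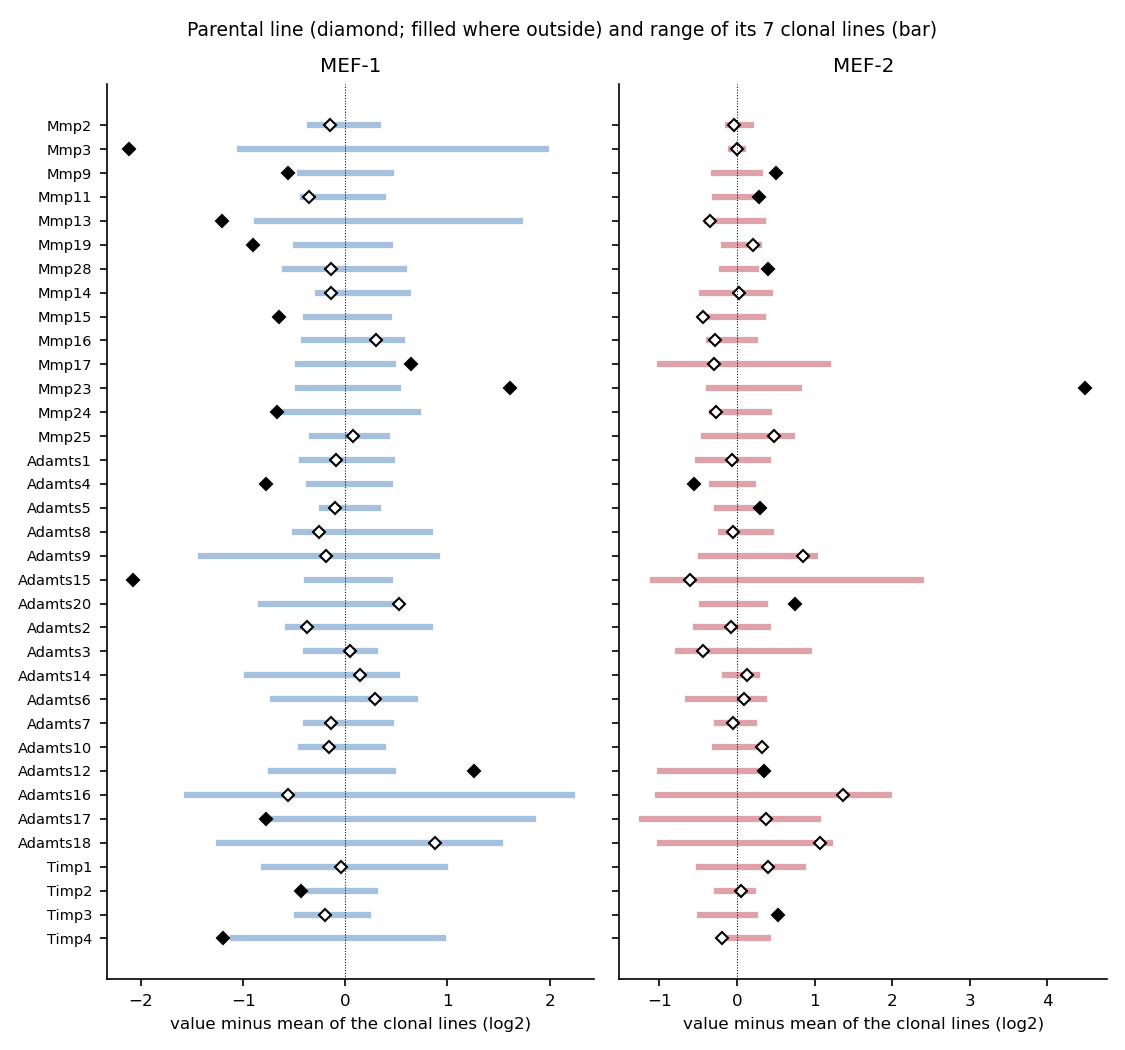
Parental line relative to the average of its 7 clones (x axis, log2 scale, diamonds, filled where outside the clonal range) and the range of the clonal lines about their mean (bars) for the 35 genes tested, MEF-1 on the left and MEF-2 on the right. Mmp23 stands out to the right in both sets (1.61 and 4.48), and Mmp3 and Adamts15 to the left in MEF-1 (−2.12 and −2.08).

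Whether neighbours or functional partners move together among the clonal lines was asked for 4 pairs of genes in each set, 8 relations in all, with exact permutation tests (two-sided, n = 7 lines). Mmp3 and Mmp13 had r = 0.87 in MEF-1 (p = 0.0185, adjusted 0.0492) but rho = 0.54 (adjusted p = 0.471), and r = 0.61 with the 5 lines left after lines 7 and 4, the farthest from the median, were taken out (exact p = 0.325). In MEF-2 the same pair had r = 0.56 and rho = 0.64 (adjusted exact p = 0.271 and 0.37), but Mmp3 there shows only the size of the library. Adamts1 and Adamts5 had r = 0.87 in MEF-2 (exact p = 0.00952, adjusted 0.0381) with rho = 0.82 (adjusted p = 0.137), and r = 0.77 with the 5 lines left without lines 6 and 3 (exact p = 0.15). Neither relation passed the test on 5 lines. In MEF-1 that pair had r = 0.56 and rho = 0.39 (adjusted exact p = 0.271 and 0.633). Mmp2 and Mmp14 had r = 0.16 and rho = 0.07 in MEF-1 and r = −0.54 and rho = −0.21 in MEF-2 (adjusted exact p from 0.271 to 0.906). Mmp3 and Mmp10 had r = 0.15 and rho = 0.21 in MEF-1 (adjusted exact p = 0.823 and 0.756), and their r of 1.00 in MEF-2 is that of values at the no-read level and no relation of expression. Its exact p of 0.000198 was still the smallest of the 8 adjusted together. This lowered the adjusted p of 0.0492 and 0.0381 given above, and neither of those is read as a call.

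Genes that act on or with the module were counted in the same fit. Of 17 genes of activation, inhibition and clearance 14 were tested, 5 were higher in MEF-1 and 1 was higher in MEF-2, beside the 48.3% of all genes that were called in either direction, which also stands beside the lists that follow. The proprotein convertase genes Furin (−0.79 ± 0.08, adjusted p = 9.82e-07) and Pcsk6 (−2.58 ± 0.27, adjusted p = 1.96e-06), whose products cut the propeptides of membrane-bound MMPs and ADAMTS enzymes, and Reck (−1.40 ± 0.21, adjusted p = 6.3e-05), a membrane-anchored MMP inhibitor, were higher in MEF-1. Serpine2, an inhibitor of serine proteases, was higher in MEF-2 (2.28 ± 0.43, adjusted p = 0.000493). Reck ran from 13.23 to 14.33 among MEF-1 clones and from 11.76 to 12.97 among MEF-2 clones, without overlap, lower in MEF-2 as were Timp2, Timp3 and Timp4.

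Of 13 substrate genes, all tested, 5 were higher in MEF-1, with Dcn (−4.74) and Comp (−1.75) leading, and 4 were higher in MEF-2, with Vcan, the versican gene (1.48 ± 0.21, adjusted p = 3.36e-05), first. Acan, the gene of aggrecan, was not called (0.39). Of 14 family genes outside the module 7 were tested, 4 were higher in MEF-1 (Thsd4 −1.65, Adamtsl1 −1.03, Adamtsl4 −0.81 and Adamtsl3 −0.72) and Papln was higher in MEF-2 (0.57). The 9 ADAM genes gave 3 in each direction, with Adam23 at −4.82 and Adam19 at 1.94. Papln and Adam17 (0.76) lie on chromosome 12, and the substrate gene Fbn2 (0.67) and the blood marker Csf1r on chromosome 18. From read coverage the paper proposes monosomy of both chromosomes in some or all MEF-1 lines. Its part in these differences was not tested. Of the module only Adamts19, which was not tested, lies on chromosome 18, and 0 genes lie on chromosome 12 or 19. Of 11 genes for transcription factors known from MMP promoters, among them the AP-1 genes Jun, Junb, Jund, Fos, Fosb, Fosl1 and Fosl2, Ets2 was called (−0.71, adjusted p = 0.000518) and the other 10 were not.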

How the data were processed

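The authors trimmed the reads with Trim Galore 0.6.0, quantified transcripts with Salmon 1.5.2 against mm10 and deposited rlog values from DESeq2 1.24.0, which are on the log2 scale, normalised by size factors and shrunken. How transcripts were joined into genes is not given in the sources used here. All columns of the table had a sample (0 without). Gene names and 1-based mm10 coordinates came from GENCODE M21, in which 54130 of the 54453 identifiers were found. The groups are the submitters' labels.

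The values were used as deposited. Genes with an average above 0 were compared between 7 MEF-1 and 7 MEF-2 clonal lines with limma 3.58.1 (R 4.3.3; trended prior, 0.05 on Benjamini-Hochberg adjusted p), tested on simulated data first. Correlations used exact permutation (Python 3.11.15, numpy 2.4.6). Ranges and parental values carry no test. The table used holds log2 values without counts, so that depth is unknown and no counting interval is given. Gene-level differences understate changes of genes with few reads. Lines were taken as at the no-read level of a gene when at least 8 of them followed, on a straight line within 0.005, the value that each library gives to the lowest genes, a rule set after the values were seen. Genes with fewer lines without reads are not found by that rule.

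The members and gene lists were chosen with earlier results of these data known. Named in full were members called with a difference of 1 or more, members with a range of 2 or more and an average above 5, and the 4 TIMPs. Exon length is that of the merged exons of a gene. Protein sequences are not shown, and bisulfite data were not analysed here. Nothing says that the clonal lines were grown more than once, so p-values measure the spread between these lines.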

Additional observations from a re-analysis of the deposited data

Results flagged for a closer look

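In 70 sets of 7 clonal values (35 genes, 2 sets), 5 had a line far from the others by Dixon's test at the 95% level, where chance gives about 1 in 20 sets, or 3.5. Mmp14 was high in MEF-1 line 1 (15.87, the next line at 15.36). Adamts12 was low in the same line (12.59, next 13.27) and low in MEF-2 line 3 (13.51, next 14.54). Mmp23 was high in MEF-2 line 3 (5.31, next 4.56), and Adamts9 was high in MEF-2 line 6 (9.48, next 8.51). Mmp9 was above its parental line in every MEF-1 clonal line, by 0.56 on average, and below it in every MEF-2 clonal line (−0.50 on average). That difference was not tested.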

How the results depend on the processing

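Under 26 alternatives, among them other filters, centring, quantile normalisation and an exact permutation test, the number of called genes was 19 to 26, with 22 to 26 when 1 clonal line was left out and 25 with protein-coding genes alone, the last chosen after seeing the data. The lowest count, 19, was of the 27 genes with an average above 5, and 20 of 39 were called without a filter on low values. Of the 25 called genes, 19 kept direction and call in every alternative that tested them, 6 lost the call in at least 1 (Mmp9, Mmp13, Mmp16, Mmp23, Adamts3 and Adamts6), and 0 reversed. Mmp3 and Timp4 are among the 19. All MEF-2 lines of Mmp3 were at its no-read level and some of Timp4 may be, so keeping the call is no support for either. Without a filter on low values Mmp9, Mmp13, Mmp16, Adamts3 and Adamts6 lost it (adjusted p from 0.063 to 0.164), with quantile normalisation Mmp9 (0.114) and Mmp13 (0.0554), with chromosome medians taken away Mmp9 (0.0963), Mmp13 (0.0722) and Adamts3 (0.41), with parental lines counted as clones Mmp9 (0.128) and Mmp23 (0.52), and by exact permutation Adamts3 (0.0783) and Adamts6 (0.068). Genes not called changed sign about 0: Mmp14 without MEF-1 line 1 or MEF-2 line 3 (−0.108 to 0.066 over all lines left out), Mmp25 with chromosome medians taken away (−0.016), Adamts10 with parental lines counted as clones (0.0040) or without MEF-1 line 2 (−0.128 to 0.0055), and Timp1 without MEF-1 line 1 or 4 or MEF-2 line 2 or 7 (−0.065 to 0.239). With clone number as a replicate block 26 genes were called, Mmp11 among them (adjusted p = 0.0238). Of the 10 genes not called, 3 gained a call in at least 1 alternative (Mmp2, Mmp11 and Adamts2). The numbers are not a pairing, since deviations of same-numbered clones correlated between −0.155 and 0.166 and 0 of 7 MEF-1 lines matched their own number best.

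A limit of 1 on the range gave 16 genes in MEF-1 and 11 in MEF-2, and a limit of 4 gave 0 and 0. Leaving out 1 clonal line gave 5 to 7 and 3 to 5 genes. A parental line outside its clones by 0.5 or more was found for 4 and 1 genes, and without 1 clonal line any distance gave 14 to 15 and 9 to 12. Without the 2 lines farthest from the median, r became −0.38 for Mmp3 with Mmp10, 0.61 for Mmp3 with Mmp13, −0.016 for Adamts1 with Adamts5 and −0.11 for Mmp2 with Mmp14 in MEF-1, and 0.77 for Adamts1 with Adamts5 and 0.0028 for Mmp2 with Mmp14 in MEF-2. With chromosome medians taken away, Mmp3 with Mmp13 in MEF-2 had r = −0.082. The causes were not tested. Depth is unknown, and shrinkage limits what low genes can show.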
